A study of Mus musculus with 6 samples.

Results

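The 31 genes described here encode surface molecules and regulators that mark the steps of B-cell development, and their RNA was used to place mouse pro-B cell cultures on that pathway. The genes were listed for their known stage, not by a measured level, with earlier results of these data already known. All 31 were matched by symbol, 1 row each, among the 22551 distinct symbols of the expression matrix. By known role they were grouped into 9 early-stage, 16 mature-stage and 6 late-stage genes. The series holds 6 RNA libraries of pro-B colonies, 3 titled Ts1Rhr and 3 titled wild-type, grown from bone marrow in methylcellulose medium for B cells and collected at 1 week, at passage 1. The Ts1Rhr strain is trisomic for part of chromosome 16. The labels name no sorting of cells, no age and no strain background. The genotype field reads Ts1Rhr even for the libraries titled wild-type, and whether each library came from a separate mouse is not stated in the sources used here.

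The value columns are coded p1A1, p1A2, p1A3, p1C1, p1C2 and p1C3. The codes give the passage and a number, but neither the labels nor the header say which letter is which genotype. The 6 libraries are therefore described as 1 set of cultures of both genotypes, each by its own value, with no comparison of Ts1Rhr with wild-type and no test between groups. Levels are in FPKM, fragments per kilobase of transcript scaled to the mapped total, so they can be set side by side between genes of different length. Read totals are unknown, so no interval or detection limit is given.

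B cells arise in the bone marrow from progenitors that first acquire the signalling chains of the B-cell receptor. Pro-B cells rearrange the heavy chain, carry CD43 and CD24 and express the surrogate light chain. Pre-B cells gain CD25 and CD2 and lose CD43, and CD20, CD22 and the BAFF receptor rise as cells become immature and then mature. CD21 and CD23 appear last, as cells mature in the spleen. Germinal centre and plasma cells then switch to Bcl6 or to Prdm1, Xbp1 and CD138.

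The cultures expressed the early B-lineage programme throughout, with myeloid RNA beside it. All 17 genes of a pro-B and pre-B list had a median of at least 1 FPKM, among them the receptor signalling chain gene Cd79a at 276 to 460 FPKM, the surrogate light chain gene Igll1 at 248 to 408 FPKM and the recombinase gene Rag1 at 14.2 to 25.0 FPKM. All 11 measured myeloid markers also reached a median of 1 FPKM, led by the lysozyme gene Lyz2 at 2457 to 4437 FPKM. Of 10 T-cell markers 3 reached that median, Lck at 10.6 FPKM, Cd247 at 6.03 FPKM and Thy1 at 3.75 FPKM, while the T-cell receptor chain genes Cd3d, Cd3e and Cd3g stayed below 1 FPKM in every library, with 0.971 FPKM as their highest value. Plasmacytoid and dendritic cell markers reached it in 5 of 8 cases, among them Flt3, which is also in the pro-B and pre-B list. Stromal markers reached it in 2 of 8, Pecam1 at 19.1 FPKM and Col1a2 at 2.79 FPKM. Over all symbols the share that reached it was 47.3%. Of 8 mast cell and basophil markers 2 reached a median of 1 FPKM, as did 2 of 7 markers of natural killer and innate lymphoid cells and 1 of 10 erythroid and megakaryocyte markers. Library p1A2 was at the extreme for the myeloid sum and for the level of Cd79a and Cd79b. Its myeloid markers summed to 5129 FPKM, against 2810 to 4178 FPKM in the other libraries. Its geometric mean of Cd79a and Cd79b was 256 FPKM, against 319.5 to 415 FPKM. Its sum over the pro-B and pre-B list was also the lowest, at 1994 FPKM. Within that list, Il7r, Cd93 and Flt3 were instead highest in p1A2, at 98.0, 92.8 and 3.73 FPKM. In bulk RNA, fewer cells of a type and less RNA per cell cannot be told apart. The pairwise Spearman correlation over all symbols lay between 0.979 and 0.984.

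Most of the stage genes were expressed. Of the 31 genes, 28 had a median of at least 1 FPKM over the 6 libraries, against 47.3% of all symbols. In every single library, 27 genes reached 1 FPKM, against 45.7% of all symbols. A median of at least 10 FPKM was reached by 21 genes, against 25.9% of all symbols. These 3 counts were the same without p1A2. Just inside the minimum lay Prdm1, with a median of 1.16 FPKM and 4 of 6 libraries at 1 FPKM or more, and just outside it lay Fcer2a, with 0.336 FPKM. By stage, 9 of 9 early, 14 of 16 mature and 5 of 6 late genes passed, and the medians of the 3 lists were 50.4, 14.3 and 13.9 FPKM, against 0.584 FPKM over all symbols. The medians of single genes ran from 0.101 FPKM for Cr2 to 1191 FPKM for Cd24a, as the plot of levels by gene shows.

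**Figure D1:**
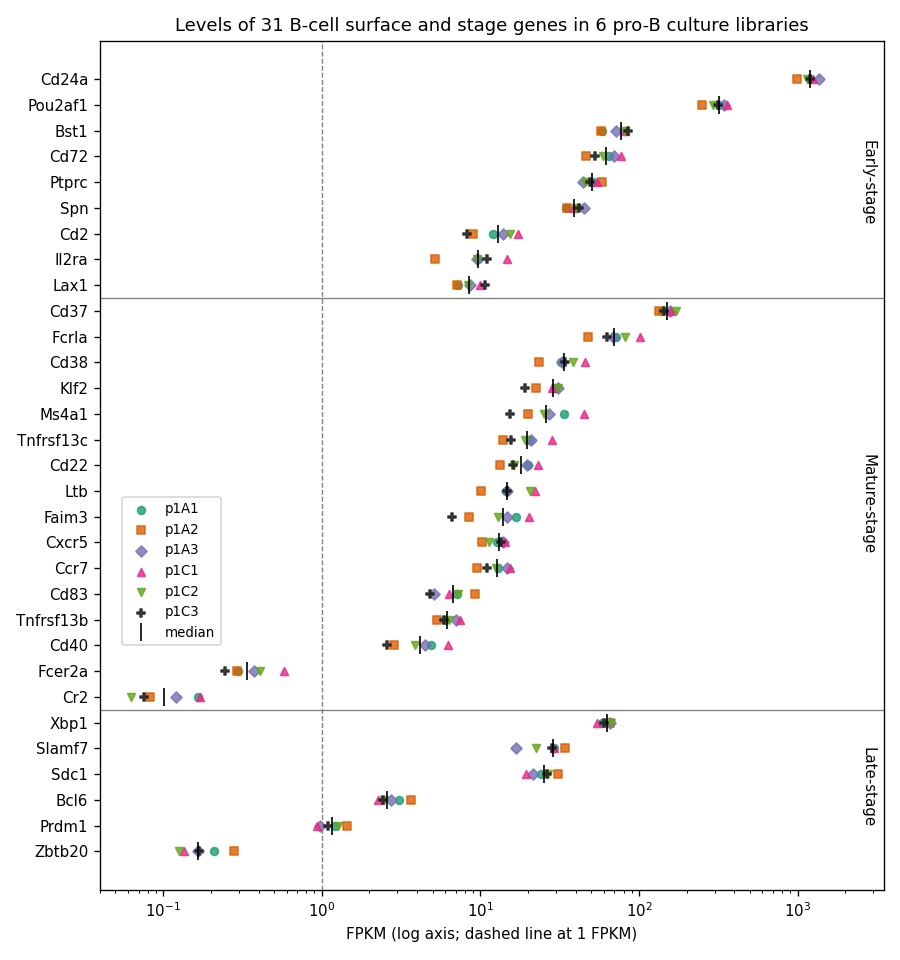
FPKM on a log axis for each of the 31 genes, sorted by median within the early-stage, mature-stage and late-stage lists; each symbol is 1 of the 6 libraries and the tick is the median. Cd24a lies at the top with 1191 FPKM, and Cr2, Zbtb20 and Fcer2a lie below the dashed line at 1 FPKM in every library.

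As a list, the early-stage genes had the highest median. Single genes of other lists lay above several of them: Cd37 and Fcrla of the mature list ranked 3 and 5 among the 31 genes, and Xbp1 of the late list ranked 6. Cd24a, which encodes the heat-stable antigen CD24, had the highest level of the 31 genes, at 989 FPKM in p1A2, a median of 1191 FPKM and 1370 FPKM in p1A3. Of all symbols, 99.9% had a lower median than Cd24a. Pou2af1, the coactivator of octamer-binding factors, ranged from 250 FPKM in p1A2 to 361 FPKM in p1C1 with a median of 319 FPKM. The values of these genes did not overlap with each other, and both were lowest in p1A2.

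Spn, which encodes CD43, the surface mucin used to define the pro-B stage, lay between 34.9 FPKM in p1A1 and 45.0 FPKM in p1A3, with a median of 39.2 FPKM. Its highest library was 1.29 times its lowest, against a median ratio of 1.33 over all symbols with a median of at least 1 FPKM. After division by the level of Cd79a and Cd79b in the same library, the ratio for Spn was 1.48. A bulk value does not tell how much Spn RNA came from B-lineage cells and how much from other cells of the cultures. Bst1, which encodes the ectoenzyme CD157 of early B-lineage and myeloid cells, had values of 58.8, 58.0, 71.9, 81.5, 81.3 and 85.1 FPKM in p1A1, p1A2, p1A3, p1C1, p1C2 and p1C3. Cd72, an inhibitory co-receptor carried from the pro-B stage onward, ranged from 46.4 FPKM in p1A2 to 77.3 FPKM in p1C1. In the GENCODE annotation of GRCm38, 41.6% of the exonic bases of Cd72 overlap Tesk1 on the other strand, and Tesk1 itself was listed at 9.76 to 12.1 FPKM; whether reads were counted by strand is not stated, so the transcripts of these genes cannot be told apart in the overlap. Ptprc, which encodes CD45, lay between 44.2 and 58.8 FPKM; it was highest in p1A2, unlike the other early genes. A value per gene does not separate the B220 isoform of CD45 from the isoforms of myeloid and T cells.

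Markers of the pre-B step were present at lower levels. Il2ra, which encodes CD25, was at 5.19 FPKM in p1A2, a median of 9.60 FPKM and 14.8 FPKM in p1C1. Cd2, an adhesion molecule that mouse B-lineage cells gain at the pre-B step, ranged from 8.20 FPKM in p1C3 to 17.3 FPKM in p1C1. The CD25 and CD2 genes varied 2.84-fold and 2.11-fold between the highest and lowest library, the widest ranges among the 9 early genes. Lax1, an adaptor that limits antigen-receptor signalling, lay between 7.11 and 10.7 FPKM. As a percentage of the level of Cd79a in the same library, Il2ra amounted to 1.88% to 3.24% and Cd2 to 2.13% to 3.80%.

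The mature-stage genes divided into those above and those below 1 FPKM. The genes of the last surface markers to appear were close to 0: Fcer2a, which encodes the IgE receptor CD23, lay between 0.246 FPKM in p1C3 and 0.577 FPKM in p1C1. Cr2, which encodes the complement receptor CD21, lay between 0.0626 FPKM in p1C2 and 0.170 FPKM in p1C1. Both were below 1 FPKM in all 6 libraries. Cd40, the receptor for T-cell help, was low but above the minimum in each library, from 2.59 FPKM in p1C3 to 6.30 FPKM in p1C1.

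Genes of the immature and transitional surface were expressed. Ms4a1, which encodes CD20, had 33.5, 20.1, 27.1, 45.2, 25.2 and 15.4 FPKM in p1A1, p1A2, p1A3, p1C1, p1C2 and p1C3. Cd22, an inhibitory lectin of the B-cell receptor, had a median of 18.1 FPKM and a range from 13.3 FPKM in p1A2 to 23.2 FPKM in p1C1. Tnfrsf13c, which encodes the BAFF receptor, had a median of 19.6 FPKM, above the 6.14 FPKM of Tnfrsf13b, which encodes TACI. Every library had more Tnfrsf13c than Tnfrsf13b, and the values of both genes did not overlap. Faim3, the IgM Fc receptor gene now named Fcmr, ranged from 6.67 FPKM in p1C3 to 20.3 FPKM in p1C1, which was 3.04-fold, the widest range among the 28 genes with a median of at least 1 FPKM.

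Other genes of this list sat among the higher expressed genes of the matrix. Cd37, a tetraspanin of B cells and other leukocytes, was at 135 to 170 FPKM, and Fcrla, an intracellular Fc receptor-like protein of B cells, at 47.7 to 101 FPKM. Cd38, an ectoenzyme and paralogue of Bst1, had a median of 33.5 FPKM, and Klf2, a transcription factor of resting lymphocytes, a median of 28.9 FPKM. The cytokine gene Ltb and the chemokine receptor genes Cxcr5 and Ccr7, which guide cells to follicles and T-cell zones, had medians of 14.7, 13.1 and 12.8 FPKM. Cd83, an activation marker of B cells and dendritic cells, was lower, at 4.81 to 9.28 FPKM, with its highest value in p1A2.

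The late-stage genes differed widely in level. Xbp1, the transcription factor of the unfolded protein response, was at 54.2 to 66.9 FPKM, Slamf7, a receptor of plasma cells and of natural killer and myeloid cells, at 16.7 to 34.4 FPKM, and Sdc1, which encodes CD138, at 19.4 to 31.1 FPKM. Mouse pro-B and pre-B cells are also known to carry CD138. Other regulators of the late steps were lower than Xbp1: Bcl6, of germinal centre cells, at 2.25 to 3.64 FPKM, Prdm1, which encodes Blimp-1, at 0.932 to 1.43 FPKM, and Zbtb20 at 0.126 to 0.281 FPKM. Beside them, Tnfrsf17, which encodes the plasma cell receptor BCMA, was listed at 0 in 4 of 6 libraries with a highest value of 0.0867 FPKM. Igj, the gene of the antibody joining chain, lay between 0.566 and 1.97 FPKM, while Irf4, a factor of both pre-B and plasma cells, had a median of 42.0 FPKM. The antibody constant region genes Ighm and Igkc were not analysed here.

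As deposited, the mature-stage and late-stage genes had their highest levels in different libraries. For the mature genes this held with upper-quartile scaling and with scaling to the same total (TPM), and changed on the scale of Cd79a and Cd79b. Among the 16 mature-stage genes, 13 had their highest level in p1C1, with Cd37, Cd83 and Klf2 as the exceptions. With upper-quartile scaling 13 were highest in p1C1, against 21.9% of symbols with a median of at least 1 FPKM, and with TPM 14, against 30.2%. The 16 genes include Cr2 and Fcer2a, which lie below that minimum. Of the 14 mature genes above it, 11 were highest in p1C1 as deposited, against 17.8% of such symbols. After division by the level of Cd79a and Cd79b in the same library, a scale chosen after the data had been seen, 6 of the 16 were highest in p1C1, 6 in p1A1 and 4 in p1A2. On that scale p1A2, with the lowest divisor, was highest for 89.2% of symbols above the minimum, and p1C1 for 0.59%. Of the 28 stage genes with a median of at least 1 FPKM, 15 were highest in p1C1, against 17.8% of all symbols that passed the same minimum, and 15 were lowest in p1A2, against 39.5%. Of the 5 late-stage genes above the minimum, 4 were highest in p1A2, against 22.7% of all symbols above it, and 4 were lowest in p1C1, against 17.1%. These libraries were picked out after the values had been seen. The library p1A2 also had the highest myeloid sum and the lowest level of Cd79a and Cd79b. Library p1C1 had the lowest myeloid sum, 2810 FPKM, and the highest level of these B-lineage genes, 415 FPKM. Library p1A3 lay close to p1C1 in both, at 2829 and 403 FPKM, but as deposited was highest for 1 of the 16 mature genes. The part of cell mixture in the differences was not tested, and the scaling given next does not test it.

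**Figure D2:**
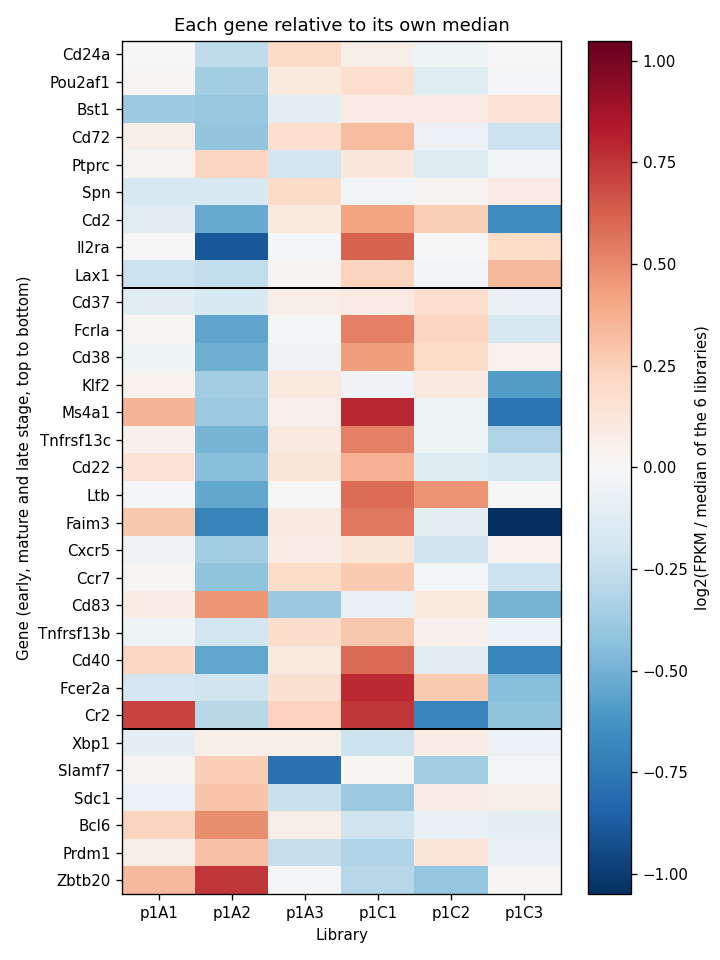
Each gene's level in each of the 6 libraries relative to its own median, as log2(FPKM / median), with early, mature and late stage genes from top to bottom. The p1C1 column is red for most mature-stage genes, p1A2 is blue for most early and mature genes and red for the late ones, and p1C3 is bluest for Faim3, Ms4a1 and Cd40.

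**Figure D3:**
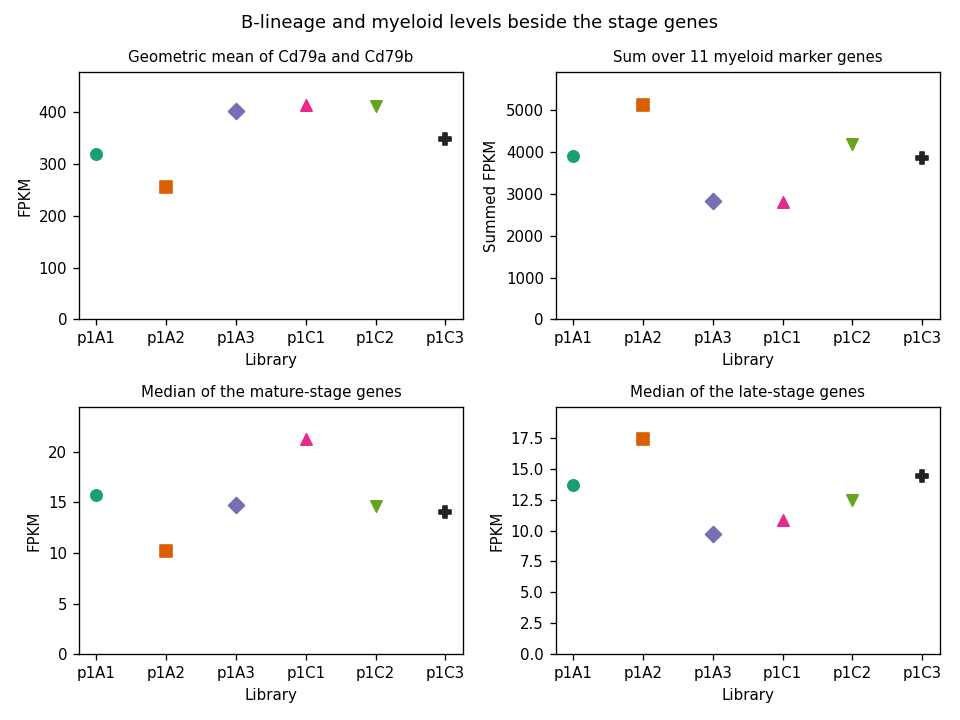
Values per library for the geometric mean of Cd79a and Cd79b, the sum over 11 myeloid markers, and the medians of the mature-stage and late-stage genes, each in FPKM with its axis starting at 0. Library p1A2 is lowest in the B-lineage level (256 FPKM) and in the mature-stage median (10.2 FPKM), and highest in the myeloid sum (5129 FPKM) and in the late-stage median (17.4 FPKM).

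In FPKM as deposited, the stage genes varied more between libraries than most expressed genes. On the scale of Cd79a and Cd79b their median ratio fell below that of all symbols, while their share at 2-fold stayed above it. The highest library was at least 2 times the lowest for 9 of the 28 stage genes with a median of at least 1 FPKM, against 7.76% of all symbols above that minimum. The median of this ratio was 1.62 over the 28 genes and 1.33 over all such symbols as deposited, and 1.55 and 1.67 on the scale of Cd79a and Cd79b. The 9 genes were Il2ra and Cd2 of the early list, Ms4a1, Cd40, Faim3, Ltb, Tnfrsf13c and Fcrla of the mature list, and Slamf7 of the late list. Without p1A2 the count was 4, against 3.23% of all such symbols, and without p1C1 it was 5, against 6.34%. Ms4a1 and Faim3 were among the genes in both cases.

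Scaling every library to its own level of Cd79a and Cd79b separated these genes. The count was again 9, of which 4 were also among the 9 genes as deposited: Ms4a1, Cd40, Faim3 and Slamf7. The 9 genes were 32.1% of the 28 stage genes, against 24.8% of symbols with a median of at least 1 FPKM on this scale. Below the 2-fold line on this scale lay Il2ra and Cd2, at 1.75 and 1.78, and Ltb, Fcrla and Tnfrsf13c at 1.46, 1.42 and 1.52. The CD20 gene Ms4a1 amounted to 9.77%, 7.27%, 6.28%, 9.91%, 5.47% and 3.99% of Cd79a in p1A1, p1A2, p1A3, p1C1, p1C2 and p1C3. Faim3 was also lowest in p1C3 by this measure, at 1.73% of Cd79a, and highest in p1A1, at 4.90%. Cd38 amounted to 7.56% to 9.97% of Cd79a, a 1.32-fold range. The late-stage genes Sdc1, Bcl6 and Prdm1, the early-stage Ptprc and the mature-stage Cd83 lay above the 2-fold line on this scale and not as deposited. Each had its highest value in p1A2, as did 89.2% of symbols above the minimum of 1 FPKM.

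**Figure D4:**
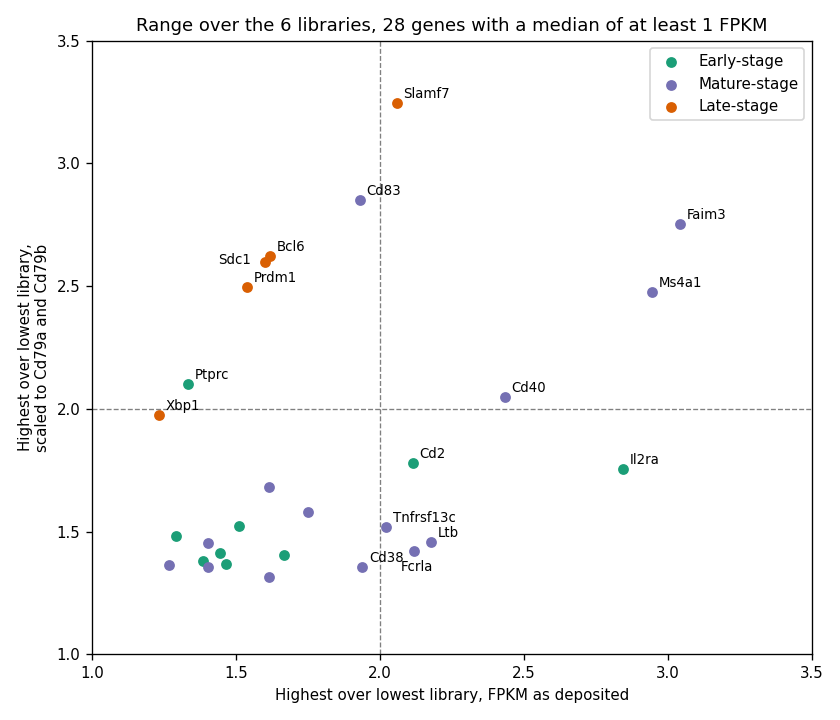
Ratio of the highest to the lowest library for the 28 genes with a median of at least 1 FPKM, as deposited on the horizontal axis and after scaling each library to Cd79a and Cd79b on the vertical axis; dashed lines mark a ratio of 2. Ms4a1, Cd40, Faim3 and Slamf7 lie beyond both lines, while Sdc1, Bcl6, Prdm1, Ptprc and Cd83 lie beyond the vertical-axis line alone.

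The promoters of an early gene, an expressed mature gene, a mature gene below 1 FPKM and a late gene are shown to set sequence beside level. Windows of 300 bases, 250 before to 50 after the gene start, were taken from RefSeq on GRCm38.p6; 23 of the 31 genes had 1 or more, 28 windows in all. Capitals mark matches, on either strand, to CCCNNGGG (a core of the EBF1 motif, the same on both strands), CAGGTG (an E-box, the class of site bound by E2A) and AGGAAGT (an ETS site); the octamer ATGCAAAT was also searched. Matches to CCCNNGGG overlap each other in Spn. The order is Spn at chr7:127137774-127138073 on the minus strand (median 39.2 FPKM), Cd22 at chr7:30878979-30879278 on the minus strand (18.1 FPKM), Cr2 at chr1:195176670-195176969 on the minus strand (0.101 FPKM) and Sdc1 at chr12:8771146-8771445 on the plus strand (25.3 FPKM).
Spn: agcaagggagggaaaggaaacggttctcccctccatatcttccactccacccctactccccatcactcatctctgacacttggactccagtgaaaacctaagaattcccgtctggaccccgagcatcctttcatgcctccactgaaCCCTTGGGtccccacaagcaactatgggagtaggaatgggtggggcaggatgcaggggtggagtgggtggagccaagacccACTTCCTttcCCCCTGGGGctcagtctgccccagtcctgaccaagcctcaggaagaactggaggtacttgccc
Cd22: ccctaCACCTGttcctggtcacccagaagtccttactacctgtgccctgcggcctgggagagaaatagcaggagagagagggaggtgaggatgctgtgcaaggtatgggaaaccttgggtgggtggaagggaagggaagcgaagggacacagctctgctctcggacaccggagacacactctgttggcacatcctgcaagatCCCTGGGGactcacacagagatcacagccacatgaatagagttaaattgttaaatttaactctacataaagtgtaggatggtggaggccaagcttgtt
Cr2: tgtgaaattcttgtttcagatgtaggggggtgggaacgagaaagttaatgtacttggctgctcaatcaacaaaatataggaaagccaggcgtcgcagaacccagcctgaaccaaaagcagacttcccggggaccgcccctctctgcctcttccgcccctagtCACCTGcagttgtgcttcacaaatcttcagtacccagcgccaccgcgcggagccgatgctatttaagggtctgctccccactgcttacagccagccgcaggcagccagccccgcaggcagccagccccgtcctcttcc
Sdc1: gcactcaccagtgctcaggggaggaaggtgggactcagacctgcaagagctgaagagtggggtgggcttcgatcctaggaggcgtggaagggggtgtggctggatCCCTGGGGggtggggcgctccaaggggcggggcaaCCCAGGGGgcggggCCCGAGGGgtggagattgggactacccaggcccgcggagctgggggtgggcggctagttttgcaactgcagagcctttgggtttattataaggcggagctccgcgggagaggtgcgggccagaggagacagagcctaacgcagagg

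The Spn window held CCCNNGGG at 104, 13 and 12 bases before the start and AGGAAGT, read on the other strand, at 23 bases before it. In Cd22, CCCNNGGG lay 48 bases and the E-box 245 bases before the start. Cr2, below 1 FPKM, had an E-box 88 bases before its start, and Sdc1 had CCCNNGGG at 145, 110 and 96 bases before its own. Of the 28 windows, CCCNNGGG was found in 4, the E-box in 10, AGGAAGT in 7 and the octamer in 0. The 7 windows with AGGAAGT came from 6 genes, because overlapping windows of Ptprc share a site. Among all 32851 windows, which also include several of some genes, the shares were 13.7%, 20.2%, 9.35% and 1.74%. Genes with the E-box included those below 1 FPKM, Cr2 and Fcer2a, and expressed ones such as Fcrla, Cd37 and Tnfrsf13c. In Fcer2a not every window held it. A match describes letters in a window and shows no binding.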

How the data were processed

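Libraries were prepared from total RNA with the TruSeq RNA kit of Illumina, per the labels' protocols. TopHat2 2.0.7, Cufflinks 2.0.0, Bowtie2 and FastQC are listed, per the submitters' processing notes, as are GRCm38 and mm9, with no step assigned to either build. The authors deposited FPKM values, 23021 rows in 6 columns that summed to 367094 to 413152 FPKM; read depth is not given in the sources used here. Rows that share a symbol were summed, which touched none of the 31 genes. All 6 columns were used as 1 set, because no source ties a column to a genotype, and the levels of genes of the triplicated segment were not used to assign one.

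Levels were summarised with Python 3.11.15 and pandas 2.3.3 as the lowest, median and highest library. The minimum for an expressed gene was 1 FPKM, and log2 levels used a pseudocount of 1. No groups were compared; the only test, Dixon's ratio of gap to range, looked for single libraries that stand apart. All 31 genes are described, and other genes were named from lists of markers, except Tesk1, chosen after its overlap was seen; 2 genes of the marker lists are not reported here. The genes and lists were chosen with earlier results of these data known. Gene positions and overlaps came from GENCODE M21. Scaling, row choice, minimum, pseudocount and single libraries were varied.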

Additional observations from a re-analysis of the deposited data

How the results depend on the processing

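No paired analysis was possible because no column could be matched to a genotype. Leaving out each library in turn, the number of genes with a highest library at least 2 times the lowest lay between 4 and 9, against 9 with all libraries; the counts at 1 FPKM (28), in every library (27) and at 10 FPKM (21) kept their values. Scaling each library to the same total (TPM) raised the median log2(FPKM + 1) to 7.08, 5.24 and 4.49 for the early, mature and late lists, against 5.68, 3.93 and 3.28 as deposited, a shift that the larger total gives by construction. With a pseudocount of 0.1 the late median was 3.05. On the scale of Cd79a and Cd79b, 6 of 16 mature genes were highest in p1C1, against 13 as deposited. Of symbols with a median of at least 1 FPKM, 0.59% were highest there. On the same scale 6 of 6 late genes were highest in p1A2, as were 89.2% of such symbols. With upper-quartile scaling p1A2 was highest for 6 of 6 late genes, against 5 of 6 as deposited and 25.5% of such symbols. The same scaling kept p1C1 highest for 13 of 16 mature genes, against 21.9%. The counts over 16 and 6 genes include Cr2, Fcer2a and Zbtb20, which lie below 1 FPKM. Unknown depth limits what the values under 1 FPKM can show.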

Other observations

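Genes of other lymphoid and myeloid programmes were also measured in these cultures. Of the germinal centre markers, the sphingosine phosphate receptor gene S1pr2 was the most abundant, at 9.40 to 17.2 FPKM, while the death receptor gene Fas lay between 1.06 and 1.49 FPKM. The plasmacytoid dendritic cell gene Siglech ranged from 1.82 FPKM in p1C1 to 6.52 FPKM in p1A2, and Itgax, which encodes CD11c, from 7.63 FPKM in p1A3 to 15.9 FPKM in p1A2. Pf4, a platelet factor gene that macrophages also express, was at 17.7 to 45.4 FPKM, although the megakaryocyte gene Gp9 did not exceed 0.363 FPKM. The T-cell kinase gene Lck, also known in B-lineage cells, was at 9.95 to 13.4 FPKM with Cd3e below 1 FPKM.

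In none of the 31 genes did a library pass the critical value of Dixon's ratio of gap to range for 6 samples. The ratio was highest for Fcer2a in p1C1, at 0.512.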
